A study of Mus musculus with 4 samples.

Results

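Myeloid C-type lectins are described here across liver ILC1s (group 1 innate lymphoid cells, tissue-resident lymphocytes related to natural killer cells) of Cd200r knockout and WT mice. The 6 genes are Clec7a, Clec4n, Clec4a2, Clec12a, Clec4a3 and Clec4a1, matched by symbol among the 18804 genes of the deposited expression table. They were selected on the FPKM values of these same libraries, because several of them were higher in knockout, so their difference between the genotypes is given as a description and carries no test. Bulk RNA-seq was made from 4 libraries, replicates 1 and 2 of Cd200r knockout and replicates 1 and 3 of WT. All came from liver ILC1s at homeostasis, from mice of 5 to 8 weeks. The product of Cd200r, CD200R, is an inhibitory receptor on immune cells, and the study compares the transcripts of these cells with and without an intact Cd200r gene. The sources used here do not give the knockout allele, the sorting gate or whether each replicate is another mouse. A p-value therefore measures only how far these libraries spread, and that spread may be technical. In bulk libraries, fewer cells of a type and less RNA per cell cannot be told apart.

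C-type lectin receptors bind sugars and other ligands at the cell surface, and the myeloid families are best known from macrophages, monocytes, dendritic cells and neutrophils rather than from innate lymphoid cells. Activating members signal through Syk, either directly or through the adaptor FcRγ (Fcer1g), to CARD9, BCL10 and MALT1 and on to cytokine genes, a route known from defence against fungi. Inhibitory members carry a cytoplasmic motif, the ITIM, that recruits the phosphatases SHP-1 (Ptpn6) and SHP-2 (Ptpn11). The annotation in the deposited table gives all 6 genes the term carbohydrate binding, which 172 genes of the table share. It gives 5 of them, all but Clec12a, the term antifungal innate immune response, which 14 genes share. The 4 genes Clec4a1, Clec4a2, Clec4a3 and Clec4n also have the term mannose binding, shared by 31 genes.

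Values are in FPKM, the fragments of a gene per kilobase of its length, scaled to all counted fragments of the library. Summed FPKM ranged from 511415 to 523717 per library. Depth was inferred as the number of reads that put the most low values of single-exon genes near whole read numbers. It came to 38970000 to 41110000 reads. Only 21.9% to 24.9% of those values lay within 0.05 of a whole number, against a median of 8.86% to 9.94% over the candidate depths. The depth is therefore a rough estimate. Values were compared as log2(FPKM + 1) with limma for 9476 genes whose mean reached 1 FPKM, a scale that understates the change of low genes. Adjusted p-values are limma's, corrected over all genes tested by the Benjamini-Hochberg method, with a threshold of 0.05. A total of 227 genes (2.4%) were higher and 89 (0.939%) lower in knockout. Transcripts of the ILC1 list were abundant in all libraries: Ncr1, an activating receptor of natural killer cells and ILC1s, ranged from 1486 to 1748 FPKM over the 4 libraries. The labels give the knocked-out gene only as Cd200r, and do not state whether Cd200r1 is meant. Values of Cd200r1 were 110.7 and 103.7 FPKM in knockout, against 161.5 and 173.3 FPKM in WT. This gene was thus reduced but not absent (log2 fold change −0.64, SE 0.09, adjusted p = 0.0045).

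Clec7a encodes Dectin-1, the receptor for fungal β-glucan, which couples to Syk through a motif in its own tail. It measured 4.15 and 7.00 FPKM in knockout replicates 1 and 2, against 1.50 and 1.19 FPKM in WT replicates 1 and 3. Both knockout libraries lay above both WT libraries, and the lowest knockout value was 2.76-fold the highest WT value. The log2 difference between the groups was 1.45 (SE 0.25), a 4.13-fold ratio of the group means.

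Clec4n encodes Dectin-2, a receptor for fungal α-mannan that pairs with FcRγ. Its FPKM was 1.70 and 2.26 in the knockout libraries, against 0.449 and 0.350 in the WT libraries. The groups did not overlap, and replicates within a group lay close together (1.98 ± 0.396 FPKM in knockout and 0.400 ± 0.0698 FPKM in WT, SD, n = 2 each). Its log2 difference was 1.08 (SE 0.23), and the ratio of the means was 4.95. These values stand on about 99 and 126 reads in knockout, against about 25 and 19 in WT, when the values are converted with the inferred depth and the summed exon length of the gene.

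Clec4a2 encodes DCIR, an ITIM-bearing inhibitory receptor of dendritic cells and other myeloid cells. It measured 1.85 and 2.32 FPKM in the knockout libraries, against 0.0775 and 0.326 FPKM in the WT libraries. The groups did not overlap, and the values stand on about 223 and 267 reads in knockout, against about 9 and 37 reads in WT. The log2 difference was 1.36 (SE 0.24), and the ratio of the means was 10.3.

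Clec12a encodes MICL, the other ITIM-bearing receptor of the set, which is known to bind uric acid crystals and to restrain myeloid activation. It measured 3.56 and 6.88 FPKM in the knockout libraries, against 0.823 and 0.889 FPKM in the WT libraries. The WT replicates were nearly equal, while knockout replicate 2 was 1.93-fold knockout replicate 1. With the longest exon sequence of the 6, this gene also had the most reads of the set in all 4 libraries, about 810 and 1501 in knockout, against about 179 and 192 in WT. The log2 difference was 1.69 (SE 0.27) and the ratio of the means 6.10.

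Clec4a3 and Clec4a1 encode further mouse relatives of DCIR, called Dcir3 and Dcir4 among the RefSeq synonyms. Clec4a3 was the highest of the 6 in both knockout libraries, at 7.73 and 13.8 FPKM, against 0.650 and 3.40 FPKM in the WT libraries. Its WT replicates differed by 5.23-fold, the widest spread of any member within a group, and its lowest knockout value was only 2.28-fold its highest WT value. The log2 difference was 2.08 with the largest SE of the set, 0.40.

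Clec4a1 measured 4.16 and 8.21 FPKM in the knockout libraries, against 0.832 and 0.313 FPKM in the WT libraries. Its log2 difference was 2.15 (SE 0.30), within its SE of that of Clec4a3, and the ratio of the means was 10.8. The groups were well apart here, since the lowest knockout value was 5.00-fold the highest WT value.

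**Figure D1:**
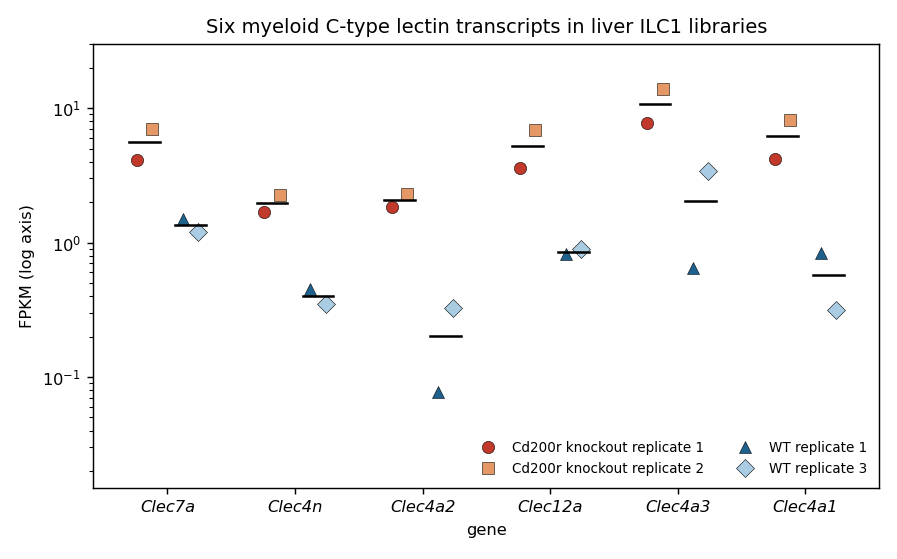
FPKM (log axis) of the 6 lectin genes in each library, with knockout libraries left of WT libraries, 1 point per library and a black bar for each group mean. Both knockout points lie above both WT points for every gene, and Clec4a3 in WT replicate 3, at 3.40 FPKM, is the highest WT value.

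All 6 genes passed the filter, but 4 of them (Clec4a1, Clec4a2, Clec4n and Clec12a) had a WT mean under 1 FPKM and passed only through their knockout values. Clec4a3 and Clec7a had a WT mean of at least 1 FPKM. The groups did not overlap, knockout higher, for 6 of the 6 genes. Among all genes tested, 24.3% had both knockout libraries above both WT libraries. The choice of genes used this contrast, so nothing is read from that count. The median log2 difference of the 6 was 1.57, beside 0.0033 over all genes tested.

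Because FPKM is per length, levels can be set side by side between the genes. In knockout the order of the means was Clec4a3 (10.8 ± 4.32 FPKM), Clec4a1 (6.19 ± 2.86), Clec7a (5.57 ± 2.01), Clec12a (5.22 ± 2.35), Clec4a2 (2.08 ± 0.328) and Clec4n (1.98 ± 0.396; SD, n = 2 each). The ranges of neighbours in this order overlapped everywhere except between Clec12a and Clec4a2, which splits the genes into 4 higher and 2 lower ones. In WT the order was Clec4a3 (2.02 ± 1.94 FPKM), Clec7a (1.35 ± 0.218), Clec12a (0.856 ± 0.0465), Clec4a1 (0.572 ± 0.367), Clec4n (0.400 ± 0.0698) and Clec4a2 (0.202 ± 0.176). There the ranges of Clec7a and Clec12a did not overlap, nor did those of Clec4n and Clec4a2, and the other neighbours overlapped. Clec4a1 thus stood above Clec7a and Clec12a in knockout and below them in WT, although its replicates overlap those of its neighbours in both orders.

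The summed FPKM of the 6 genes was 23.2 and 40.5 in the knockout libraries, against 4.33 and 6.47 in the WT libraries, a ratio of means of 5.89. Even so they were a minor part of the RNA, at 0.00453% and 0.00773% of the summed FPKM in knockout, against 0.000844% and 0.00125% in WT. Clec4a3 made up 33.4% and 34.2% of the lectin sum in knockout, against 15.0% and 52.5% in WT. Clec7a held 17.9% and 17.3% in knockout, against 34.6% and 18.5% in WT. The make-up of the sum was therefore alike in the knockout replicates, while the WT replicates differed from each other.

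Within knockout the genes also shared a direction between replicates. All 6 genes were higher in knockout replicate 2 than in knockout replicate 1, by 1.25-fold (Clec4a2) to 1.97-fold (Clec4a1), whereas 49.3% of all genes tested were higher in replicate 2. In WT the replicates showed no shared direction, since 3 of the 6 genes were higher in replicate 3 and 3 in replicate 1. Without knockout replicate 2, the median log2 difference of the 6 was 1.28, and without knockout replicate 1 it was 1.93.

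The 6 genes lie in 2 groups on mouse chromosome 6 (coordinates of RefSeq on GRCm38.p6). Clec4a1 (chr6:122921848-122934619), Clec4a3 (chr6:122952515-122969878), Clec4a2 (chr6:123122690-123143999) and Clec4n (chr6:123229843-123247024) belong to the Dectin-2 cluster, where 9 protein-coding lectin genes span 368 kb. Clec12a (chr6:129349783-129365303) and Clec7a (chr6:129461591-129472785) belong to the Dectin-1 cluster, 6.06 Mb further along, of which 7 genes over 157.6 kb, from Clec12a to Olr1, were considered. The summed FPKM of the 4 genes of the Dectin-2 cluster was 15.4 and 26.6 in knockout, against 2.01 and 4.38 in WT (ratio of means 6.58). That of the pair in the Dectin-1 cluster was 7.71 and 13.9 in knockout, against 2.32 and 2.08 in WT (ratio 4.90). These sums hold only genes chosen with their difference in view, so they say nothing of the clusters as a whole.

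Other genes inside these clusters, which were not picked for a rise, were mixed, and the pair among them that reached the filter did not pass the test. Clec4e, which encodes Mincle, a receptor for mycobacterial glycolipids that also pairs with FcRγ, measured 1.08 and 0.890 FPKM in knockout, against 1.61 and 2.26 FPKM in WT. It was lower in both knockout libraries but did not pass the test (log2 fold change −0.56, SE 0.23, adjusted p = 0.277). Clec4b1, which encodes DCAR, an activating relative of DCIR, measured 0.744 and 2.84 FPKM in knockout, against 1.10 and 0.524 FPKM in WT, so that the groups overlapped (0.53, SE 0.35, adjusted p = 0.515). Clec4a4, the gene between Clec4a3 and Clec4b1, was listed at 0 in all 4 libraries.

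The remaining neighbours lay below the filter and were not tested. They are named for their place in the clusters, after their values were seen. Clec4d, which encodes MCL, the partner of Mincle, measured 0.127 and 1.48 FPKM in knockout, against 0.0380 and 0.0192 FPKM in WT, with about 93 reads in knockout replicate 2 and about 8 in knockout replicate 1. Clec1b, which encodes CLEC-2, the podoplanin receptor of platelets and some myeloid cells, measured 0.768 and 1.51 FPKM in knockout, against 0.413 and 0.132 FPKM in WT. For both genes the knockout values lay above the WT values. Clec9a, which encodes the dead-cell receptor DNGR-1 of cross-presenting dendritic cells, was listed at 0 in both knockout libraries and in WT replicate 1, and at 0.0857 FPKM in WT replicate 3. Olr1, which encodes the oxidised lipoprotein receptor LOX-1, was above 0 only in WT replicate 1, at 0.142 FPKM. Clec4b2, Clec12b and Clec1a were not analysed here.

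**Figure D2:**
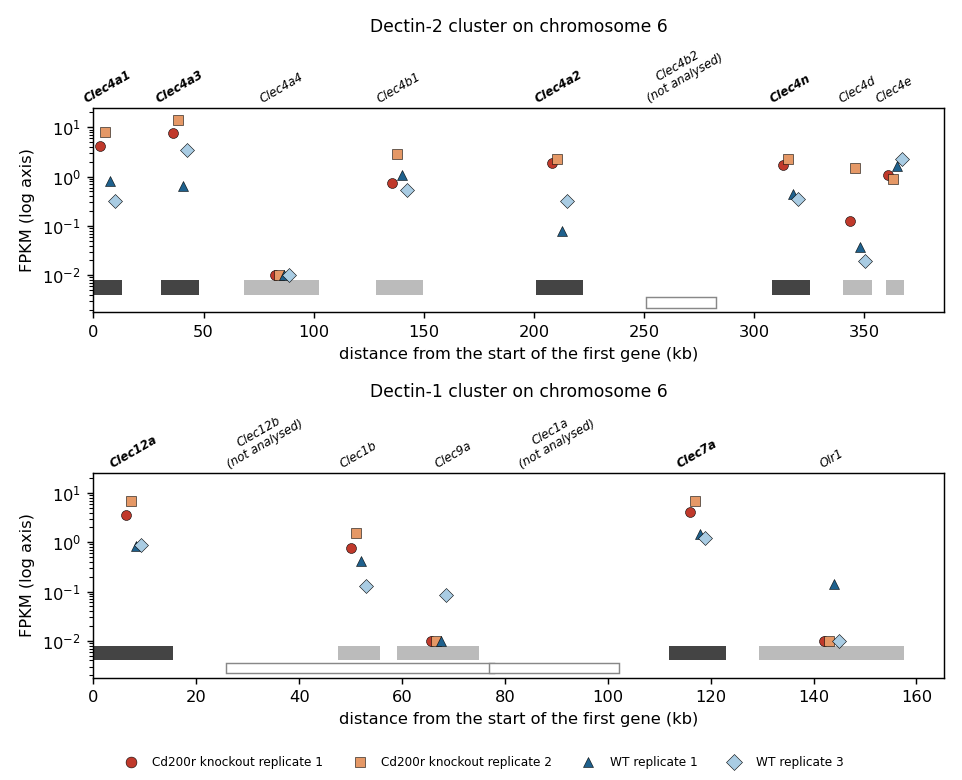
FPKM (log axis) of the lectin genes against their distance in kb from the start of the first gene of the Dectin-2 cluster (top) and of the Dectin-1 cluster (bottom), 1 symbol per library, with knockout left of WT at each gene. Dark bars mark the 6 genes described here, grey bars their neighbours and open bars genes not analysed here; values listed at 0 are drawn just above the bars. Knockout symbols stand above WT symbols at the dark bars, and also at the grey bars of Clec4d and Clec1b. They stand below WT symbols at Clec4e and among them at Clec4b1.

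Paralogs that lie side by side can share reads, so their transcripts were compared in the GENCODE release M21 annotation. Among windows of 100 bases, 0 were identical between any of the 6 genes. Clec4a2 shared 2.14% of its windows (64 of 2990) with Clec4a4, and no such window of the other 5 genes was found in another gene. With windows of 50 bases the shared part was 6.83% for Clec4a2, whose matches then included Clec4b1 and many unrelated genes, 0.686% for Clec4n, 0.457% for Clec12a and 0 for the other 3. The read length is not given in the labels, so how many reads could be shared was not tested. The coding sequences of Clec4a1 and Clec4a3 were 68.7% identical over their alignment, those of Clec4a2 and Clec4a3 68.2%, and those of Clec4a1 and Clec4a2 63.7%. Clec7a and Clec12a were 48.8% identical, and the most distant pair of the 6, Clec4n and Clec12a, 45.8%. Clec4a2 was closest to Clec4a4 (77.2%), which was itself listed at 0 throughout.

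RefSeq promoter sequences of 300 bases, from 250 before to 50 after the transcript start, were matched for 5 of the 6 genes: Clec4a1, Clec4a3, Clec4a2, Clec12a and Clec7a. They are shown because these genes were higher in the same libraries, and because a purine-rich word, GAGGAA, recurs in them. This word is the core of the site bound by PU.1, a transcription factor of myeloid and B cells. It was searched on both strands, and capitals mark it (TTCCTC is its reverse complement). The word was picked after these sequences were read, so its count among them is no evidence of an excess. The sequences, on the gene's own strand, are those of Clec4a1 (chr6:122921598-122921897, plus strand), the downstream start of Clec4a3 (chr6:122952394-122952693, plus strand), Clec12a (chr6:129349994-129350293, plus strand), Clec7a (chr6:129472730-129473029, minus strand) and, with no match, Clec4a2 (chr6:123122440-123122739, plus strand), all on GRCm38.p6.
Clec4a1: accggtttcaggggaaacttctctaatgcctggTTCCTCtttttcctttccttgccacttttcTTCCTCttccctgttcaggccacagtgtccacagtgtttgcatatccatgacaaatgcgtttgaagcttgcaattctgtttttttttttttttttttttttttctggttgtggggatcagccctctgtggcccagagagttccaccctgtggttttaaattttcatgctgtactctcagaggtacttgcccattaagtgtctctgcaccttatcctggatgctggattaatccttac
Clec4a3: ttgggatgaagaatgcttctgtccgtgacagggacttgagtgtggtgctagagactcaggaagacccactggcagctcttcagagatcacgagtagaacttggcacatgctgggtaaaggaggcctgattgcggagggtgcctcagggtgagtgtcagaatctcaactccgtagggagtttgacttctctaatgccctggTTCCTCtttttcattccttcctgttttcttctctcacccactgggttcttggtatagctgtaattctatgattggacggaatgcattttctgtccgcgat
Clec12a: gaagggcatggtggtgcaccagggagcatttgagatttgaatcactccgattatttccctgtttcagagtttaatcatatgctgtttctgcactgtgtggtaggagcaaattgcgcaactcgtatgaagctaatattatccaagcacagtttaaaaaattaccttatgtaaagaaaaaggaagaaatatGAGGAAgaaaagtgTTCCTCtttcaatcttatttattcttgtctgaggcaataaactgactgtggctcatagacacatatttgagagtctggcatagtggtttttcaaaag
Clec7a: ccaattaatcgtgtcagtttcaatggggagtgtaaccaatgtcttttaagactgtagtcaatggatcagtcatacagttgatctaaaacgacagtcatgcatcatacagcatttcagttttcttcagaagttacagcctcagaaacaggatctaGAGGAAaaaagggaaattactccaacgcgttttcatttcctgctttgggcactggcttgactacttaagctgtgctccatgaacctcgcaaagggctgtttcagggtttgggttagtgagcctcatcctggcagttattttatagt
Clec4a2: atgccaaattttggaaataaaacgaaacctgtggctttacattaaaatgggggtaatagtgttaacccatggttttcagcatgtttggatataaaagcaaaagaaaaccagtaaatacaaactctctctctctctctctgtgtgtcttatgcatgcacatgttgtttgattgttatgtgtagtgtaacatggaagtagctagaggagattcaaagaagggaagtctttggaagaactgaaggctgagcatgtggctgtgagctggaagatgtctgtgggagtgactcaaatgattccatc
The word was found in 4 of the 5 genes with a promoter and in 5 of their 7 annotated start windows. It stood in 28.3% of all 32851 mouse promoters searched, and in 31.3% of the 27025 genes that have one. In Clec12a it began at position −61 and again, on the opposite strand, at position −47, counted from the transcript start. In Clec7a it began at −96 (at −90 from its other annotated start), in Clec4a3 at −50 and in Clec4a1 at −217 and −187. The upstream start of Clec4a3 and the single start of Clec4a2 held no match. Clec4a1 and Clec4a3 also shared an unbroken run of 17 bases, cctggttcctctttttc, which contains the word in reverse. Between other pairs of genes the longest shared run was 7 to 10 bases. A match describes letters only, and binding was not measured.

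The other C-type lectin genes give the background of the family. Of 36 such genes listed, 28 had a row in the table, 9 reached the filter and 0 passed the limma test, while 3 had an unadjusted p under 0.05, as had 1468 (15.5%) of all genes tested. Their median log2 fold change was −0.07. The most abundant was Clec2i, at 57.3 and 49.5 FPKM in knockout, against 70.0 and 63.3 FPKM in WT (−0.32, SE 0.11, adjusted p = 0.205). Clec2i and Clec2d encode ligands of the NKR-P1 receptors of natural killer cells, and Clec2d also did not pass (−0.49, SE 0.25, adjusted p = 0.391). Cd302 had a log2 fold change of 0.23. Ly75 (−0.11), which encodes the antigen-uptake receptor DEC-205, Cd209a (0.17) and Clec16a (−0.07) complete the tested genes outside the clusters beside Clec4f, and are named after their values were seen. Clec16a carries a symbol of the family, but its place among lectin receptors was not examined, and its value is the median given above.

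Clec4f, the lectin that marks mouse Kupffer cells, measured 3.72 and 12.4 FPKM in knockout, against 2.04 and 4.37 FPKM in WT. The groups overlapped and it did not pass the test (0.98, SE 0.42, adjusted p = 0.294). Without knockout replicate 1 it passed (1.73, adjusted p = 0.00371), with a single knockout library that was assumed to vary like the others.

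A pair of lists around the lectins was next examined. The first held 25 adaptors, kinases, phosphatases and other components that lectin receptors signal through, of which 23 were tested, 1 was higher, 1 lower and 21 did not pass (median log2 fold change −0.08). The second held 20 other pattern receptors, sensors, cytokines and related genes of antifungal responses, of which 11 were tested, 2 were higher, 1 lower and 8 did not pass (median 0.26). Over both lists, 8.82% of the 34 tested genes were higher and 5.88% lower, beside 2.4% and 0.939% of all genes. The proximal adaptors were abundant and not called. Fcer1g, which encodes the FcRγ chain that Dectin-2 needs, measured 3414 and 3481 FPKM in knockout, against 3678 and 3769 FPKM in WT (−0.11, SE 0.07, adjusted p = 0.527). Tyrobp, which encodes the adaptor DAP12, was at −0.27 (adjusted p = 0.132) and passed when knockout replicate 2 was left out (−0.35, adjusted p = 0.0205).

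The kinase and scaffold that follow the activating lectins were scarce. These and the other pathway genes that did not pass are named for their place in the pathway, after their values were seen. Syk measured 1.23 and 1.64 FPKM in knockout, against 2.68 and 2.31 FPKM in WT (−0.52, SE 0.22, adjusted p = 0.287). Card9, the scaffold that relays Dectin-1 and Dectin-2 signals in myeloid cells, was between 0.0257 and 0.0389 FPKM over the 4 libraries, about 2 to 3 reads each, and fell below the filter. Its partners Bcl10 (−0.17) and Malt1 (0.06) did not pass. Ptpn6, which encodes the SHP-1 phosphatase recruited by DCIR and MICL, did not pass either (−0.19, adjusted p = 0.316), nor did Inpp5d, which encodes SHIP-1 (−0.21, adjusted p = 0.548).

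Cxcl2 and Lgals3, both of the second list, were among the genes that were higher. Cxcl2, a neutrophil-attracting chemokine, rose to 5.29 and 5.38 FPKM in knockout, against 0.493 and 1.23 FPKM in WT (1.80, SE 0.24, adjusted p = 0.0034). Its WT mean was 0.862 FPKM, so Cxcl2 passed the filter only through its knockout values. Lgals3, which encodes galectin-3, a lectin of another structural family that is abundant in macrophages and works with Dectin-1 in sensing fungi, rose to 72.7 and 93.8 FPKM in knockout, against 45.3 and 44.7 FPKM in WT (0.86, SE 0.13, adjusted p = 0.0048).

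The 2 lower genes were Plcg2, of the first list, and Tnf, of the second. Plcg2, which encodes a phospholipase that acts below Syk, fell to 45.7 and 44.2 FPKM in knockout, against 65.8 and 67.7 FPKM in WT (−0.56, SE 0.10, adjusted p = 0.0140). It did not pass when either WT library was left out. Tnf, a cytokine that Dectin-1 induces in macrophages, fell to 15.4 and 18.2 FPKM in knockout, against 28.2 and 34.0 FPKM in WT (−0.85, SE 0.15, adjusted p = 0.0105), and did not pass without WT replicate 3.

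**Figure D3:**
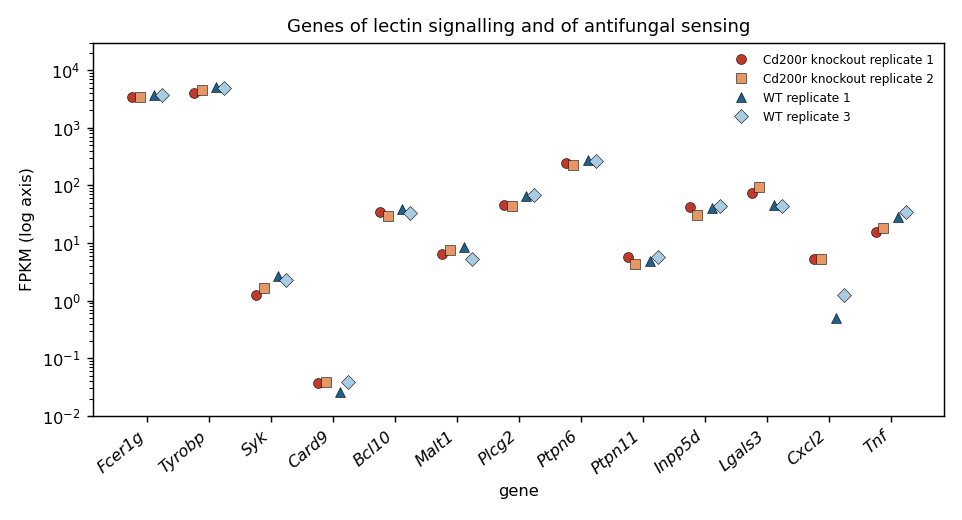
FPKM (log axis) of 13 genes of lectin signalling and antifungal sensing, 1 symbol per library with knockout left of WT, from the adaptors Fcer1g and Tyrobp on the left to the galectin gene Lgals3 and the cytokine genes Cxcl2 and Tnf on the right. Lgals3 and Cxcl2 are higher and Plcg2 and Tnf lower in knockout; Fcer1g is at 3414 to 3769 FPKM and Card9 at 0.0257 to 0.0389 FPKM in every library.

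Markers of other cell types were set beside the lectins, since the lectins are myeloid genes measured in a lymphoid preparation. Of the 16 genes of the macrophage and Kupffer cell list, 10 were tested, and 7 were called higher in knockout and 0 lower. Among all genes tested, 2.4% were higher and 0.939% lower. This list, like all lists here, was chosen with earlier results of these data known, so nothing is read from that count. Its summed FPKM was 642 and 958 in knockout, against 246 and 226 in WT. Most of that sum was Lyz2, at 527 and 771 FPKM in knockout, against 213 and 193 FPKM in WT. The genes that rose were Adgre1 (F4/80), Csf1r, Lyz2, Cd68, C1qa, C1qb and C1qc. Adgre1 measured 3.54 and 5.01 FPKM in knockout, against 0.698 and 1.01 FPKM in WT (1.50, SE 0.24, adjusted p = 0.0065). Its WT mean was 0.854 FPKM, so Adgre1 passed the filter only through its knockout values. C1qc rose most of the list (2.76, SE 0.23). Kupffer cell genes, named here after their values were seen, were mixed: Clec4f is given above, and Cd5l, which did not pass, measured 2.02 and 4.20 FPKM in knockout, against 2.38 and 3.92 FPKM in WT. Vsig4 measured 2.59 and 8.48 FPKM in knockout, against 2.91 and 1.66 FPKM in WT (0.85, SE 0.39, adjusted p = 0.322). Timd4, under the filter, measured 0.234 and 1.93 FPKM in knockout, against a listing at 0 and 0.101 FPKM in WT. Marco, also under the filter, was lower in knockout, at 0.328 and 0.158 FPKM, against 0.554 and 0.360 FPKM in WT. The part of macrophage transcripts in the lectin values was not tested.

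The other myeloid lists had fewer genes called. The monocyte list had 0 of 6 tested genes called by limma (5 at an unadjusted p under 0.05, beside 15.5% of all genes tested). Its summed FPKM was 140.1 and 154.5 in knockout, against 139.4 and 154.5 in WT. Of the 6 genes, 5 lay higher in both knockout libraries than in both WT libraries, beside the 24.3% of all genes tested, with a median log2 fold change of 0.52 over the 6. Treml4 measured 1.73 and 1.81 FPKM in knockout, against 0.450 and 1.07 FPKM in WT (0.68, SE 0.25, adjusted p = 0.208). The remaining gene, Fcgr3, an Fc receptor also carried by natural killer cells, measured 64.7 and 73.1 FPKM in knockout, against 81.9 and 93.0 FPKM in WT (−0.34, SE 0.11, adjusted p = 0.153), and as the most abundant of the list it weighs most in the sum. In the dendritic cell list, H2-Ab1 (1.35, SE 0.14) and H2-Aa (1.16, SE 0.12), both class II genes, rose and Itgax fell (−0.66, SE 0.11; not passed without WT replicate 1), among 8 tested. The summed FPKM of that list was 640.2 and 706 in knockout, against 416 and 464 in WT. Most of that sum came from H2-Ab1, H2-Aa and Cst3, and Cst3 did not pass (0.25, SE 0.09, adjusted p = 0.198). Genes of the dendritic cell list named here after their values were seen, Cst3 among them, were mixed. Batf3 measured 1.54 and 4.34 FPKM in knockout, against 0.892 and 0.252 FPKM in WT (1.26, SE 0.35, adjusted p = 0.0884). Xcr1 lay between 4.27 and 4.71 FPKM in every library, and Flt3 and Clec9a stayed under 0.1 FPKM. In the neutrophil list, 2 of 4 tested genes were higher, Camp (1.57, adjusted p = 0.0223) and Ngp (2.66, adjusted p = 0.0024), both granule proteins, of which Camp did not pass without knockout replicate 2. Camp measured 1.18 and 3.38 FPKM in knockout, against a listing at 0 and 0.0857 FPKM in WT. Ngp measured 3.77 and 10.1 FPKM in knockout, against 0.109 and 0.199 FPKM in WT. Both had a WT mean under 1 FPKM and passed the filter only through their knockout values. The summed FPKM of the neutrophil list was 28.3 and 49.2 in knockout, against 18.9 and 8.73 in WT. Most of that sum was S100a8, at 16.8 and 29.3 FPKM in knockout, against 15.5 and 6.55 FPKM in WT. S100a8 and S100a9 did not pass (adjusted p = 0.136 and 0.139). Under the filter, Retnlg and Cxcr2 were lower in both knockout libraries, while Csf3r and Ltf were higher in both. These genes are named after their values were seen. Mpo was listed at 0 in all 4 libraries. The part of monocyte, dendritic cell and neutrophil transcripts in the lectin values was not tested.

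The ILC1 list had 2 of 12 genes lower and 0 higher, Cd200r1 and Gzmb (−0.50, adjusted p = 0.00558; not passed when either WT library was left out), and its summed FPKM was 9894 and 9451 in knockout, against 11904 and 11772 in WT. The T cell list was split, with 3 tested genes higher and 3 lower in knockout by log2 fold change. Its summed FPKM was 2124 and 2156 in knockout, against 2373 and 2348 in WT. Cd3g, named here after its values were seen, measured 1983 and 1950 FPKM in knockout, against 2249 and 2238 FPKM in WT (−0.19, SE 0.07, adjusted p = 0.242). Limma called 0 of 4 B cell, 0 of 6 T cell, 0 of 6 hepatocyte and 0 of 1 endothelial genes tested. At an unadjusted p under 0.05 were 2, 3, 2 and 0 of them, beside 15.5% of all genes tested. Of these, Cd3e (0.69) and Cd3d (0.65), components of the T cell receptor complex, passed without knockout replicate 1 and without WT replicate 1, Apoa1 (0.63), an apolipoprotein of hepatocytes, passed without knockout replicate 1 and without WT replicate 3, and Cd79a passed without WT replicate 1 (−0.78).

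**Figure D4:**
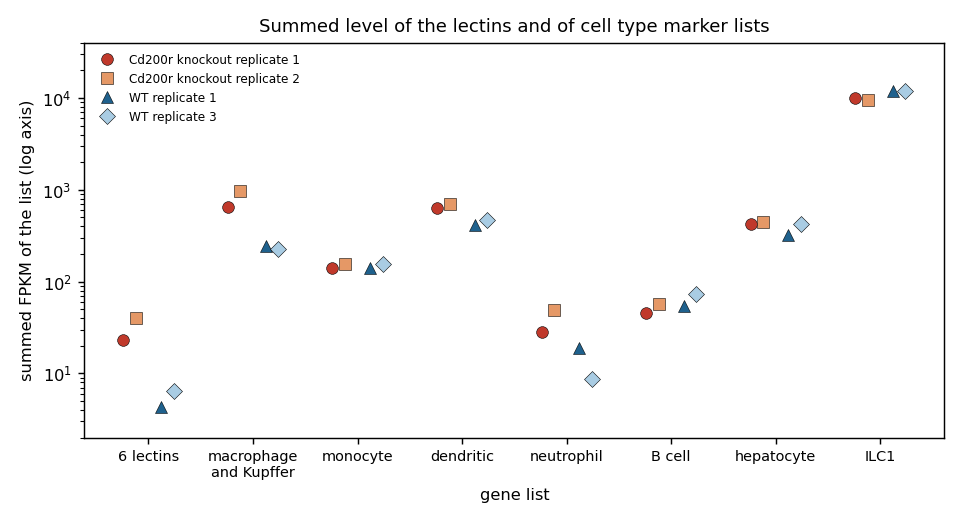
Summed FPKM (log axis) of the 6 lectins and of 7 cell type lists, 1 symbol per library with knockout left of WT. Most of the macrophage sum is Lyz2, most of the neutrophil sum S100a8 and most of the dendritic sum H2-Ab1, H2-Aa and Cst3. The lectin sum (23.2 and 40.5 in knockout, 4.33 and 6.47 in WT) and the macrophage sum (642 and 958, against 246 and 226) stand apart between the groups, as do the dendritic, neutrophil and ILC1 sums, while the monocyte sums coincide although 5 of 6 tested monocyte genes lie higher in knockout.

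Set against single macrophage genes, the lectin sum kept or lost its difference according to the gene chosen. Per 100 FPKM of Adgre1, the lectin sum was 654 and 808 FPKM in knockout, against 621 and 640 FPKM in WT, a ratio of 1.16. Per 100 FPKM of Csf1r it was 445 and 533 FPKM in knockout, against 241 and 289 FPKM in WT (ratio 1.84). Per 100 FPKM of C1qb it was 60.6 and 76.9 FPKM in knockout, against 74.4 and 100.5 FPKM in WT (ratio 0.787). The order of the group means turned there, but the groups overlapped. Over the 10 macrophage genes tested, the ratio ran from 0.682 for C1qc to 6.09 for Cd5l, with a median of 1.61. The 3 genes with a ratio under 1 were all C1q genes, C1qa, C1qb and C1qc. Per 100 FPKM of Ncr1, by comparison, the ratio was 6.72. The 6 lectins were chosen by the contrast between the genotypes, so these ratios are a description only.

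The genes whose profile over the 4 libraries was most like the mean profile of the 6 lectins were Igsf6, Sh2d1a, Sgk1, Adgre1, Lpl and Lyz2, by Euclidean distance of centred log2(FPKM + 1) values over 4 libraries. Igsf6, an immunoglobulin superfamily gene, was the closest, at a distance of 0.0987, and measured 3.30 and 6.08 FPKM in knockout, against 0.703 and 0.926 FPKM in WT. The next were Sh2d1a (0.163), which encodes the lymphocyte adaptor SAP, and Sgk1 (0.164), which encodes a serum- and glucocorticoid-induced kinase. Adgre1 (0.196), Lpl (0.211), encoding lipoprotein lipase, and Lyz2 (0.221), encoding lysozyme, followed. The lectins' own distances from their mean ran from 0.173 for Clec12a to 0.995 for Clec4a3, so 3 of these genes lay nearer to the mean than any of the lectins did. The profiles were ranked on the contrast by which the lectins were chosen, so this likeness is no separate evidence.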

How the data were processed

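RNA-seq of liver ILC1s was analysed from the deposited FPKM table of 18804 genes in 2 Cd200r knockout and 2 WT libraries. Per the labels' protocols, RNA was extracted with TRIzol, the cDNA was made and amplified by a single-cell kit for full-length mRNA, and libraries were built with a transposase kit. The strand of a read is lost in this chemistry, and a gene that another overlaps antisense may hold reads of both. The submitters' processing notes name fastp, HISAT2, HTSeq, DESeq2, R 3.2.0 and mm10, with no role or order. The FPKM values were used as deposited, and no scaling between libraries is stated.

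The 9476 genes whose mean reached 1 FPKM were tested with limma 3.58.1 (R 4.3.3, mean-variance trend, no covariate, two-sided) on log2(FPKM + 1), knockout minus WT, with Benjamini-Hochberg adjustment and a threshold of 0.05. The fit was tested on simulated data whose noise was drawn with the variances that limma had fitted. That simulation could not test whether those variances hold. Folds are ratios of group mean FPKM. An approximate read number is FPKM times summed exon length (GENCODE M21) times the depth inferred from values of single-exon genes, and is an estimate because the sources used here do not give the authors' gene lengths. RefSeq (GRCm38.p6) held 97.3% of the gene identifiers.

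The 6 genes and all lists were chosen with earlier results of these data known. Genes named are the 6, their tested cluster neighbours, up to 6 genes per list by smallest p (or the 2 with the smallest p where none passed), markers at 0 throughout, and the 6 nearest profiles. A gene that this rule names is not reported here. Other genes are said to be outside this rule or are given for a call under another setting. Alternatives covered the pseudocount, the filter, scaling, the variance trend and each library left out.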

Additional observations from a re-analysis of the deposited data

How the results depend on the processing

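With 2 libraries a group, the calls rest on the spread that limma pools over genes. All 6 lectins were higher in knockout under each alternative in which they were tested, with log2 differences of 0.98 to 3.26 for Clec4a1, 0.45 to 2.98 for Clec4a2, 1.17 to 2.79 for Clec4a3, 0.37 to 2.05 for Clec4n, 0.72 to 1.93 for Clec7a and 0.78 to 2.40 for Clec12a. Their median was 2.55 with a pseudocount of 0.1, 0.75 with a pseudocount of 5 and 2.08 with a filter at a mean of 5 FPKM, which only Clec4a3 reached, and 1.28 to 1.93 with each library left out. The count of 316 genes over the whole table was 0 with no filter (1898 at an unadjusted p under 0.05), 70 with no mean-variance trend and 256 to 574 with each library left out, 574 being without knockout replicate 1. The 5 genes called in the signalling and antifungal lists became 3 with the filter at 5 FPKM, 0 with no filter and 1 with no trend, and 4 to 7 with each library left out. The other lectins gave 0 to 1 calls with each library left out. Among the other genes named, 300 comparisons with an alternative kept their direction and side of the threshold, 11 came to pass, 39 no longer passed and 2 turned in sign, uncalled in both cases. With each library left out, Cd302 ranged from −0.22 to 0.68 and Clec4b1 from −0.038 to 1.10, the lowest without knockout replicate 2 for both. Genes of these lists that came to pass were Tyrobp, given above, Cd14 without knockout replicate 1 (1.56) or without WT replicate 3 (1.27), Nfatc1 without knockout replicate 1 (−0.51) and Il1b without knockout replicate 2 (1.39). The cause was not tested. With no mean-variance trend, Adgre1, C1qa, C1qb, C1qc, Cxcl2 and Lyz2 still passed. Cd200r1, Cd68, H2-Aa, H2-Ab1, Itgax, Lgals3, Gzmb, Plcg2, Tnf, Camp and Ngp did not. No paired analysis was possible because the groups share only replicate number 1. WT values of Clec4a2, Clec4a1 and Clec4n stand on as few as 9, 19 and 19 reads, and limit how well their folds are known.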
